A study of Homo sapiens with 4 samples.

Results

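Ribosome biogenesis is the assembly line that turns the precursor ribosomal RNA made by RNA polymerase I in the nucleolus into the RNAs of both ribosomal subunits. Small nucleolar ribonucleoproteins (snoRNPs) guide chemical modification of the precursor, and large sets of processing factors, helicases and GTPases fold and cut it while ribosomal proteins join. Several nucleolar proteins, NPM1 among them, are known targets of SUMO, a small protein that is attached to other proteins, and SENP3 and SENP5 are nucleolar proteases that remove it. The 45 genes described here encode RNA polymerase I factors, snoRNP proteins and rRNA processing and assembly factors. They were chosen by symbol from a written list, with earlier results of these data known. All 45 were found among the 19381 genes of the count table.

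RNA was sequenced from SK-LMS-1, an established human cell line that the labels give as uterine leiomyosarcoma. The 2-D08 group (2 libraries) was exposed to 50 µM of 2-D08, a flavone known as an inhibitor of SUMO attachment, for 48 h. The other group (2 libraries) was left untreated, with no vehicle named. Both groups are the same line with no other agent or allele stated. The labels do not say whether the replicates are separate cultures, and p-values here rest on the spread of 2 libraries per group, part or all of which may be technical.

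Total counts were 14796702 and 31300635 in the 2-D08 libraries and 29586475 and 16628710 in the untreated ones. In the larger library of each group, 2-D08 replicate 2 and untreated replicate 1, 88.8% and 89% of nonzero counts were even numbers, against 47.9% and 48.4% in the others. The reason was not tested, and the depth of these 2 libraries may be overstated. Of 11 smooth muscle markers 9 could be tested, with 1 called higher and 4 lower. DES had 0 counts in all libraries, and the marker sums were 782 and 833 CPM (counts scaled to library size) in 2-D08 libraries and 1136 and 1153 CPM in untreated ones. Among markers of other cell types, calls were made for epithelial cells (0 higher and 3 lower of 6 tested, sums of 277 and 231 CPM against 343 and 304 CPM), immune cells (2 higher and 0 lower of 3, sums of 98.5 and 99.7 CPM against 62.5 and 67 CPM) and endothelial cells (1 higher and 0 lower of 2, sums of 2.06 and 2.08 CPM against 1.28 and 1.57 CPM). The endothelial call was that of PECAM1 (1.89), while CDH5 was at -1.10 (edgeR adjusted p = 0.131), and the immune marker CD14 was at -0.63 and not called. The part of these markers in the results below was not tested. In bulk RNA, a shift in the make-up of the cells and a shift in RNA per cell cannot be told apart.

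Transcripts of ribosome biogenesis genes were more often higher than lower in 2-D08 cells, and at least 2 genes rose in each of their 6 role groups. Of the 45 genes, 30 (66.7%) were called higher and 0 lower with edgeR's quasi-likelihood test at an adjusted p under 0.05. Among all 12906 tested genes, 17.1% were called higher and 16.9% lower. The median log2 fold change was 0.37 over the 45 genes (quartiles of 0.23 and 0.57) and 0.00 over all tested genes. Rises ranged up to 0.99 for BRIX1 and 0.98 for LYAR, and 14 genes exceeded 0.5 on the log2 scale. The genes not called ran from -0.18 for NHP2 to 0.28 for NOP10. In 36 of the 45 genes both 2-D08 libraries lay above both untreated libraries, against 33.8% of all tested genes. In 2 genes, NHP2 and UBTF, both lay below, against 33.7%. The summed level of the 45 genes was 8446 and 9259 CPM in 2-D08 libraries and 7030 and 7405 CPM in untreated libraries, so the groups did not overlap.

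**Figure D1:**
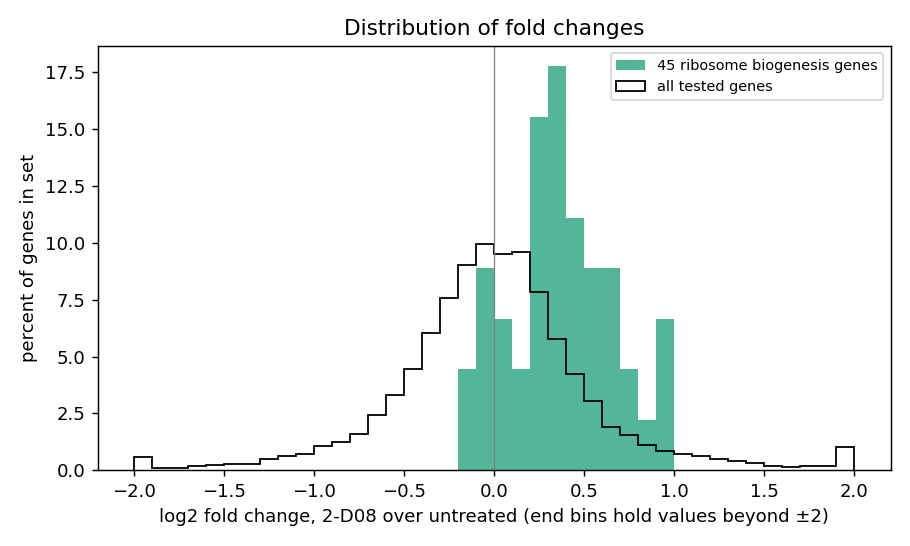
Histogram of fitted log2 fold changes (x axis, 2-D08 over untreated) as a percent of genes in each set (y axis), for the 45 ribosome biogenesis genes (filled) and all 12906 tested genes (line; end bins hold values beyond the axis). The filled distribution lies mostly right of 0, with a median of 0.37 against 0.00 for all tested genes.

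The size of the count depended on the libraries used. Without untreated replicate 1, 16 of the 45 genes (35.6%) stayed past the threshold while 7.34% of all tested genes were called higher, and without untreated replicate 2, 16 did while 9.81% were. The calls lost without untreated replicate 1 were those of DDX18, DKC1, GAR1, MYBBP1A, NCL, NIP7, NOP14, PES1, RRP12, TCOF1, UTP14A, UTP4, WDR43 and WDR75, with edgeR adjusted p-values of 0.0612 to 0.434. Those lost without untreated replicate 2 were BYSL, DDX18, DKC1, MYBBP1A, NCL, PES1, RRP1, RRP12, TCOF1, UTP14A, UTP20, UTP4, WDR43 and WDR75, with adjusted p-values of 0.0632 to 0.347. Without 2-D08 replicate 2, NCL, UTP14A and WDR43 lost their calls (edgeR adjusted p-values of 0.0842 to 0.129). On the deposited TPM values (TPM is a level per transcript length), limma called 12 of the 45 genes while 5.44% of all genes were called higher. LYAR, BRIX1, DDX21, NOP2, NOP56, NOP58, NOP16, GNL3, NOLC1, RRN3 and RRS1 stayed past the threshold in each of the 17 alternatives tried.

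**Figure D2:**
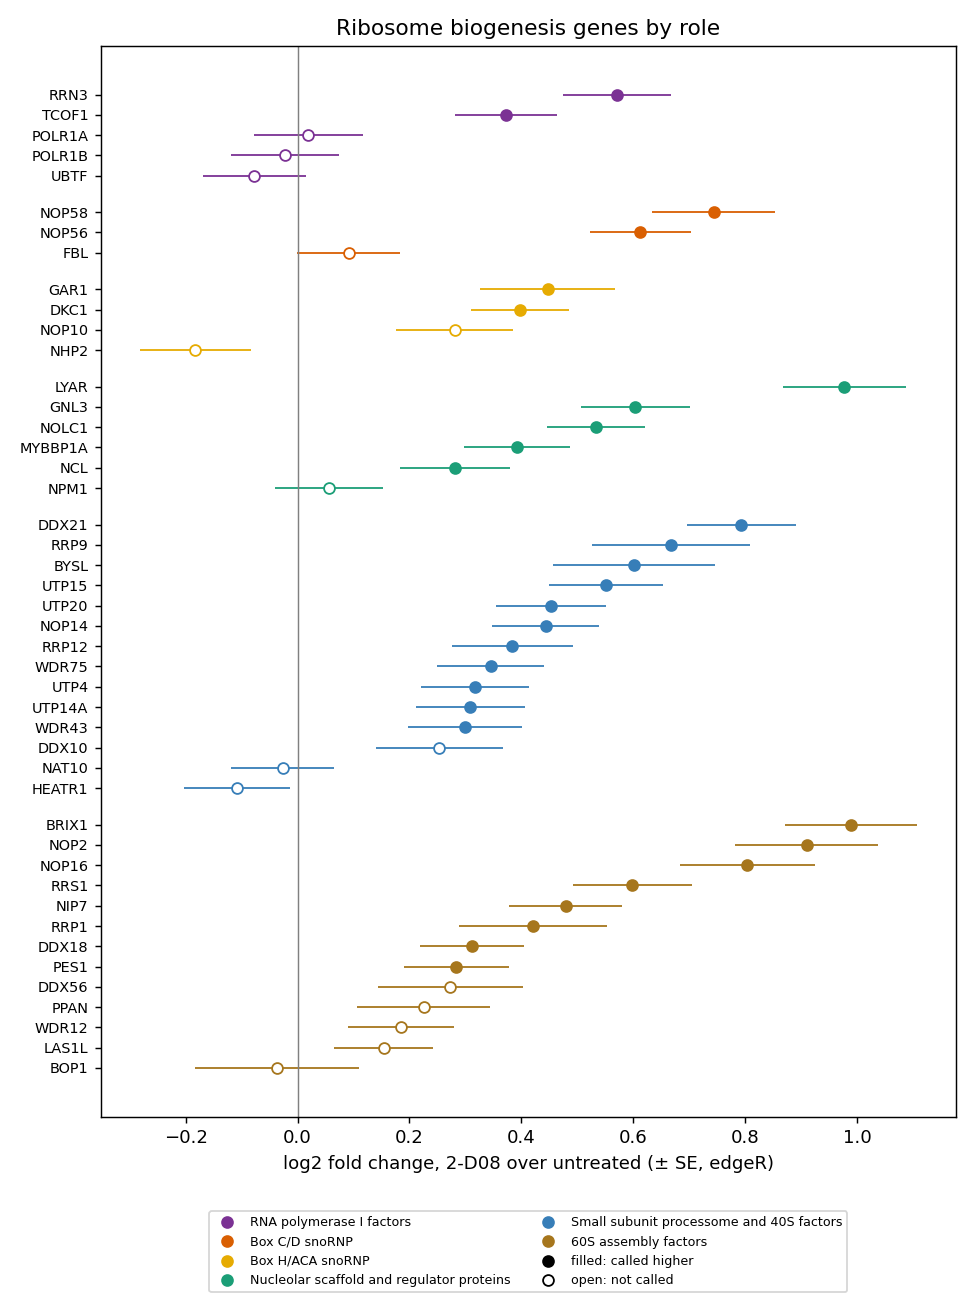
Log2 fold change of each of the 45 genes (x axis, 2-D08 over untreated, bars are standard errors from edgeR), grouped by role. Filled points are the 30 genes called higher; open points are the 15 not called, from NHP2 (-0.18) to NOP10 (0.28).

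Because libraries with mostly even counts occurred in both groups, the genes were also compared within each pair, without a test. In the pair with mostly even counts, 2-D08 replicate 2 over untreated replicate 1, 38 genes were above 0 with a median log2 ratio of 0.42. In the other pair, 2-D08 replicate 1 over untreated replicate 2, 40 genes were above 0 with a median of 0.36. In both pairs 36 of the 45 genes were above 0, against 36.5% of all tested genes. Since all 30 called genes had both 2-D08 libraries above both untreated libraries, their sign in each pair was fixed and is no further evidence. With the even-count class as a term in the edgeR fit, an alternative added after seeing the data, 24 of the 45 genes were called higher, against 13.1% of all tested genes. DDX18, NCL, PES1, UTP14A, UTP4 and WDR43 lost their calls, with edgeR adjusted p-values of 0.0834 to 0.124. The pairs differed in size for single genes. BRIX1 had log2 ratios of 1.26 in the even-count pair and 0.70 in the other, whereas BYSL, a late small-subunit factor, had 0.32 and 0.91. NCL had 0.46 and 0.09, and DDX56 had -0.02 and 0.57.

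**Figure D3:**
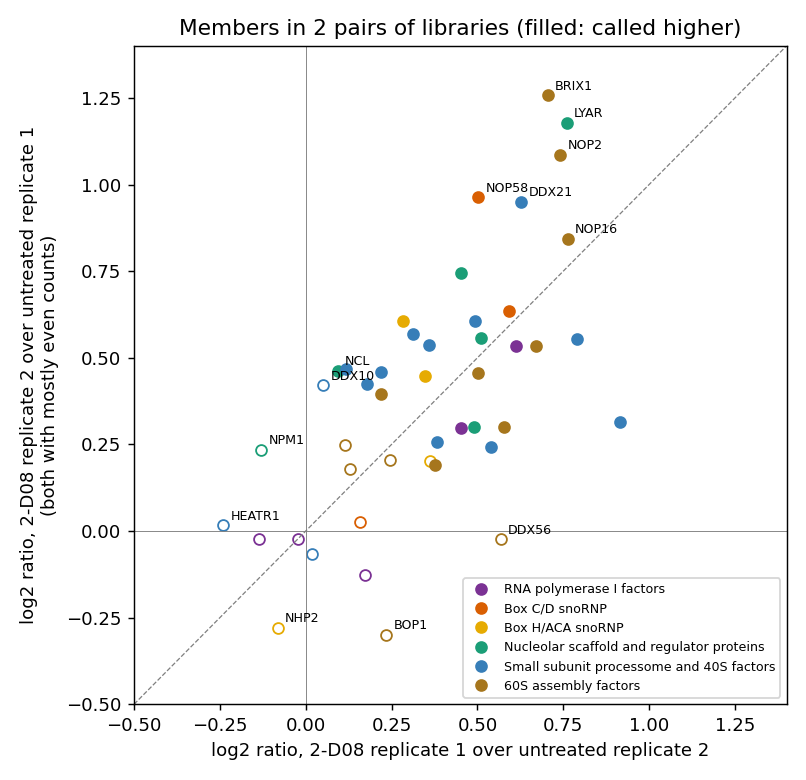
Log2 ratio of each of the 45 genes in the pair with mostly even counts (y axis, 2-D08 replicate 2 over untreated replicate 1) against the other pair (x axis, 2-D08 replicate 1 over untreated replicate 2). The dashed line marks equal ratios: BRIX1 lies above it (1.26 and 0.70), and DDX56 lies below it (-0.02 and 0.57). Filled points are called genes, whose place in the upper right quadrant follows from groups that do not overlap.

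The promoters of these genes often held a short word that the list did not use. RefSeq promoter windows on GRCh38.p14, from 250 bases before to 50 bases after the start of each gene, were matched for 38 of the 45 genes. The letters CACGTG, the canonical E-box that USF and related basic helix-loop-helix factors can bind, were present in at least 1 window of 17 of the 38 genes (44.7%). The same search found them in 12.4% of the 10593 tested genes with a window and in 7.26% of all 35116 windows. The word reads the same on both strands. In 15 of the 17 genes a match began within 50 bases of the start. It was present in 14 of 24 matched genes called higher and 3 of 14 not called, a difference that was not tested. Over all genes no such excess was seen, with the word in 11.8% of tested genes called higher, against 12.4% of all tested genes. Windows of the other ribosome biogenesis genes named further on held it in 29 of 117 cases (24.8%). Other short words searched on both strands were at shares nearer those of tested genes: CGGAAG in 52.6% of the 38 genes against 38.3%, CCAAT in 44.7% against 43.8%, GGGCGG in 68.4% against 76.6%, and TATAAA in 2.63% against 8.85%. Of the 117 other ribosome biogenesis genes, 62.4% held CGGAAG, also above the 38.3% of tested genes. CCAAT (35.0%), GGGCGG (65.8%) and TATAAA (6.84%) were each below their share of tested genes there. A match describes the letters only and is not evidence of binding.

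The windows of LYAR and DDX21, which are among the genes with the largest rises, are shown first as the 120 bases before the start (LYAR at chr4:4290022-4290141, minus strand; DDX21 at chr10:68956527-68956646, plus strand). They are followed by shorter stretches from called genes (UTP4 at chr16:69132621-69132650, plus; UTP20 at chr12:101280083-101280112, plus; RRP9 at chr3:51941892-51941921, minus; GNL3 at chr3:52686026-52686055, plus; NOP14 at chr4:2963374-2963403, minus) and from 3 genes that were not called (NOP10 at chr15:34343130-34343159, minus; NAT10 at chr11:34105602-34105631, plus; FBL at chr19:39846356-39846385, minus). Each is written 5′ to 3′ in the direction of the gene, with the E-box in capitals.
LYAR: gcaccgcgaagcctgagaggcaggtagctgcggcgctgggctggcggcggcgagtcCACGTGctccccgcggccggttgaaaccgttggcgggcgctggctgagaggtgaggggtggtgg
DDX21: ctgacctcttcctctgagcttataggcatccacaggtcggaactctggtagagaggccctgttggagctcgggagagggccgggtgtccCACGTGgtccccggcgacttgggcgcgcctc
UTP4: agagcgcgcgcgCACGTGgggccggggcgg
UTP20: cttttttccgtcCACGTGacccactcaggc
RRP9: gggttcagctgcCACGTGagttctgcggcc
GNL3: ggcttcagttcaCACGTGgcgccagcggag
NOP14: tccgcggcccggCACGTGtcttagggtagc
NOP10: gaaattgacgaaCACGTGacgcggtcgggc
NAT10: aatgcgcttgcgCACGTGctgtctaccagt
FBL: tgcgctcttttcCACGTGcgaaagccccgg
The word begins 64 bases before the start in LYAR, 31 in DDX21, 16 in UTP4, 10 in UTP20, 5 in RRP9, 15 in NAT10 and 11 in NOP10. It lies just after the start in GNL3 (6 bases), FBL (6 bases) and NOP14 (15 bases). Genes that rose and genes that were not called both carry it close to the start.

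Of the 5 RNA polymerase I factor genes, RRN3 and TCOF1 were called higher, and POLR1A, POLR1B and UBTF were not called. Whether the calls follow function was not tested. The share called higher among all tested genes was 17.1%. In the further RNA polymerase I list 8 of 16 tested genes were called higher and 8 were not. Those called higher include the subunit genes POLR1G (log2 fold change 0.92) and POLR2K (0.75), described further on. RRN3 encodes the initiation factor that couples RNA polymerase I to growth signals. It had 87.8 and 91 CPM in 2-D08 libraries, against 62.8 and 57.5 CPM in untreated libraries (log2 fold change 0.57 ± 0.10 SE, edgeR adjusted p = 0.000548). The groups did not overlap, but GENCODE names 3 pseudogene copies of RRN3, so its own share of the reads is uncertain. TCOF1 encodes treacle, a nucleolar scaffold for rRNA transcription and early processing. It had 129.6 and 125 CPM, against 102 and 94.6 CPM in untreated libraries (0.37 ± 0.09, edgeR adjusted p = 0.00646). Its deposited TPM values differed more, at 40.8 and 52.1 against 29.3 and 28.9, a log2 ratio of 0.68. The subunit genes POLR1A (159 and 147 CPM, against 160.5 and 141 CPM in untreated libraries) and POLR1B (73.3 and 78.4, against 79.7 and 74.4 CPM) overlapped between groups. UBTF, the upstream binding factor that opens ribosomal DNA, had 108 and 118 CPM, against 120.2 and 119 CPM (-0.08 ± 0.09, edgeR adjusted p = 0.545).

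The box C/D snoRNPs, which guide ribose methylation, showed rises of their scaffold genes. NOP58 had 201 and 249 CPM in 2-D08 libraries, against 128 and 142 CPM in untreated libraries (0.74 ± 0.11 SE, edgeR adjusted p = 0.000201). NOP56, its paired scaffold protein, had 219.5 and 213 CPM, against 137 and 146 CPM (0.61 ± 0.09, edgeR adjusted p = 0.000193). For both genes the 2-D08 libraries were well above the untreated ones. FBL, the methyltransferase fibrillarin of the same particle, had 163 and 148 CPM, against 146 and 146 CPM (0.09 ± 0.09, edgeR adjusted p = 0.467). Count ratios within a library do not depend on scaling, and NOP58 over FBL was 1.23 and 1.68 in 2-D08 libraries against 0.877 and 0.971 in untreated libraries. NOP56 over FBL was 1.35 and 1.44 against 0.944 and 1. These ratios did not overlap between groups, but the smallest two-sided p that an exact permutation test can give for 2 libraries against 2 is 0.333. They set called genes over an uncalled gene of the same data and are no further evidence. NOP56 has 3 named pseudogene copies, which leaves its level uncertain.

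In the box H/ACA snoRNPs, which convert uridine to pseudouridine, DKC1 and GAR1 rose. DKC1, the pseudouridine synthase dyskerin, had 335 and 346 CPM in 2-D08 libraries, against 254 and 264 CPM in untreated libraries (0.40 ± 0.09 SE, edgeR adjusted p = 0.00339). GAR1, a small core protein of the particle, had 41.5 and 43.3 CPM, against 28.5 and 34.1 CPM (0.45 ± 0.12, edgeR adjusted p = 0.0111). The other 2 core genes of the particle did not pass. NOP10 lay at the threshold, with 60.4 and 55.2 CPM against 47.9 and 47 CPM (0.28 ± 0.10, edgeR adjusted p = 0.0502), and it passed in 5 of the 17 alternatives. NHP2 was at 69.7 and 62.4 CPM against 75.8 and 73.7 CPM (-0.18 ± 0.10, edgeR adjusted p = 0.171). NHP2 was called lower without 2-D08 replicate 1 (edgeR adjusted p = 0.0194) and in the fit with a replicate block (0.0475). The ratio of DKC1 to NHP2 counts was 4.81 and 5.54 in 2-D08 libraries against 3.35 and 3.57 in untreated libraries. Since the groups did not overlap for either gene, in opposite directions, the separation of this ratio was fixed and is no further evidence. NHP2 has 2 named pseudogene copies and its exons overlap RMND5B on the other strand, and reads of the pair cannot be told apart where strand was not used in counting.

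Of the 6 nucleolar scaffold and regulator genes 5 rose, while 17.1% of all tested genes were called higher. LYAR, which encodes a nucleolar zinc finger protein tied to cell growth, had 87.4 and 101 CPM in 2-D08 libraries, against 44.6 and 51.6 CPM in untreated libraries (0.98 ± 0.11 SE, edgeR adjusted p = 2.2e-05). It had the smallest p of the 45 genes, its groups did not overlap, and GENCODE names 1 pseudogene copy. GNL3, the GTPase nucleostemin, had 223 and 257 CPM, against 153 and 163 CPM (0.60 ± 0.10, edgeR adjusted p = 0.000387). Its exons overlap GLT8D1 on the other strand. NOLC1, the snoRNP chaperone of the nucleolus and Cajal body, had 349 and 344 CPM, against 234 and 245 CPM (0.53 ± 0.09, edgeR adjusted p = 0.000444). MYBBP1A, a nucleolar protein that also binds transcription factors, rose by 0.39 ± 0.10, and its exons overlap SPNS2 on the other strand. The 2 genes of this group with the highest levels moved less. NCL, or nucleolin, had 1439.7 and 1703 CPM, against 1235 and 1349.7 CPM (0.28 ± 0.10, edgeR adjusted p = 0.0393), a call lost in 7 of the 17 alternatives, and it has 2 named pseudogene copies. NPM1, a nucleolar chaperone, had 1769 and 2066 CPM, against 1756 and 1934 CPM, with overlapping groups and an edgeR adjusted p of 0.688. GENCODE names 45 pseudogene copies of NPM1, so reads of this gene may have been split or lost in counting. Per transcript length, NPM1 was the highest of the 45 genes, at 2167 and 2406 TPM in 2-D08 libraries and 2318 and 2386 TPM in untreated ones. NCL followed at 831 and 964 TPM against 748 and 789.7 TPM, and FBL was next at 311 and 282 TPM against 292 and 285 TPM.

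**Figure D4:**
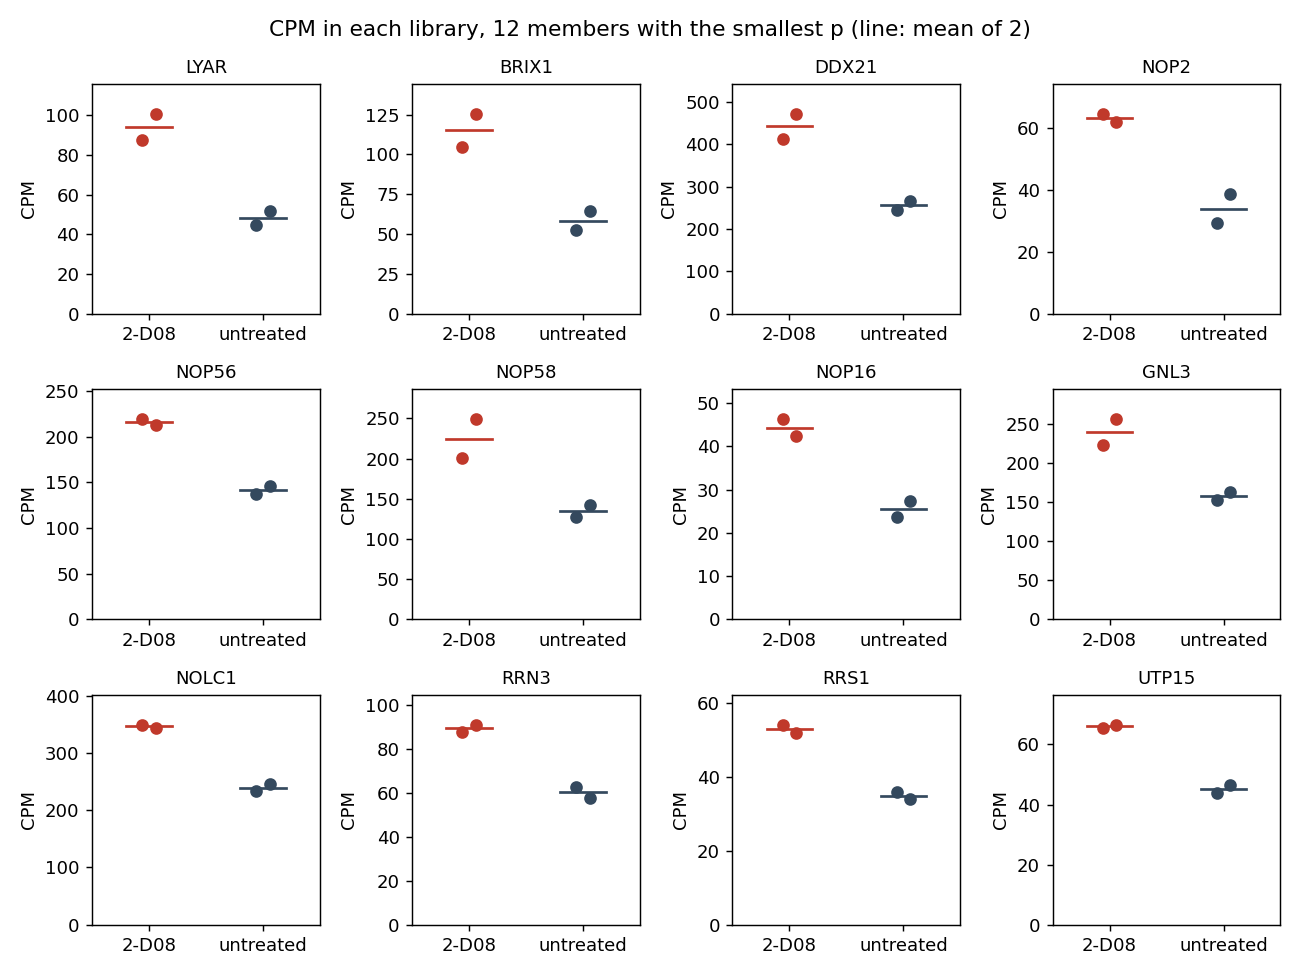
CPM (y axes, from 0) in each library for the 12 genes with the smallest p, with 2-D08 libraries left and untreated libraries right; lines are means of 2 libraries. In all 12 panels both 2-D08 libraries lie above both untreated libraries, as for LYAR (87.4 and 101 against 44.6 and 51.6 CPM). Since these genes were picked by p in the same fit, this separation is no further evidence. It was seen in 33.8% of all tested genes.

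The small-subunit processome is the large particle that assembles on the precursor as it is transcribed. Its genes and those of later small-subunit maturation rose in 11 of 14 cases, while 17.1% of all tested genes were called higher. Their median log2 fold change was 0.36. DDX21, an RNA helicase of rRNA transcription and processing, had 412 and 472 CPM in 2-D08 libraries, against 244 and 266 CPM in untreated libraries (0.79 ± 0.10 SE, edgeR adjusted p = 4.56e-05). UTP15, of the subcomplex that binds the precursor first, had 65.6 and 66.6 CPM, against 43.8 and 46.6 CPM (0.55 ± 0.10, edgeR adjusted p = 0.000953). Its exons overlap ANKRA2 on the other strand. Among its partners in that subcomplex, WDR75 (0.34 ± 0.10), UTP4 (0.32 ± 0.10) and WDR43 (0.30 ± 0.10) rose less. HEATR1, another protein of that subcomplex, had overlapping groups, with 111 and 123 CPM, against 121 and 132 CPM (-0.11 ± 0.09, edgeR adjusted p = 0.399). On the other strand, exons of HEATR1 overlap LGALS8 and those of UTP4 overlap CHTF8. The ratio of UTP15 to HEATR1 counts was 0.589 and 0.543 in 2-D08 libraries against 0.361 and 0.354 in untreated libraries. It sets a called gene over an uncalled gene of the same data and is no further evidence.

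The U3 snoRNP protein gene RRP9 had 25.5 and 22 CPM in 2-D08 libraries, against 15 and 14.8 CPM in untreated libraries (0.67 ± 0.14 SE, edgeR adjusted p = 0.00259). Its count of 244 in untreated replicate 2 was the lowest of any of the 45 genes in any library. BYSL, which acts late in small-subunit maturation, had 36.6 and 28.8 CPM, against 23.1 and 19.4 CPM (0.60 ± 0.14, edgeR adjusted p = 0.00575). UTP20 (0.45 ± 0.10), NOP14 (0.44 ± 0.10), the pre-ribosome export factor gene RRP12 (0.38 ± 0.11) and UTP14A (0.31 ± 0.10), all of which act in the same pathway, also rose. The RNA helicase gene DDX10 was at 94.6 and 123 CPM, against 91.6 and 91.4 CPM (0.25 ± 0.11, edgeR adjusted p = 0.101), and has 2 named pseudogene copies. NAT10, which acetylates cytidines of rRNA and transfer RNA, had 84.2 and 83.4 CPM, against 87.3 and 83.2 CPM, and the groups overlapped. On the TPM scale NAT10 was at 40.8 and 55.5 against 41.4 and 44, where 2-D08 replicate 2 alone was high.

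Large-subunit assembly factor genes rose in 8 of 13 cases, with a median of 0.31, and included the largest rise of the 45 genes. Of all tested genes, 17.1% were called higher. BRIX1, which helps incorporate an assembly module of the early large subunit, had 105 and 126 CPM in 2-D08 libraries, against 52.6 and 64.4 CPM in untreated libraries (0.99 ± 0.12 SE, edgeR adjusted p = 3.62e-05). BRIX1 overlaps RAD1 on the other strand and has 1 named pseudogene copy. NOP2, an rRNA cytosine methyltransferase, had 64.6 and 62 CPM, against 29.2 and 38.6 CPM (0.91 ± 0.13, edgeR adjusted p = 0.000136). NOP16 had 46.3 and 42.4 CPM, against 23.6 and 27.3 CPM (0.80 ± 0.12, edgeR adjusted p = 0.000224), and its exons overlap ARL10 and HIGD2A on the other strand. RRS1, another large-subunit assembly factor gene, had 54.1 and 51.8 CPM, against 35.8 and 34 CPM (0.60 ± 0.11, edgeR adjusted p = 0.000779). In all of these genes the lower 2-D08 library was above the higher untreated library.

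Smaller rises among large-subunit genes were those of NIP7 (0.48 ± 0.10), RRP1 (0.42 ± 0.13) and the helicase gene DDX18 (0.31 ± 0.09 SE). NIP7 has 3 named pseudogene copies and DDX18 has 5, which leaves their levels uncertain, and NIP7 also overlaps COG8 on the other strand. PES1, BOP1 and WDR12 encode the PeBoW complex, which is needed to process the large-subunit rRNA precursor. Among them only PES1 was called, and differences between their fold changes were not tested. PES1 had 157 and 141 CPM in 2-D08 libraries, against 123 and 121 CPM in untreated libraries (0.28 ± 0.09, edgeR adjusted p = 0.0305), with 2 named pseudogene copies and an overlap with TCN2 on the other strand. WDR12 had 76.7 and 81.2 CPM, against 68.3 and 70.8 CPM (0.18 ± 0.09, edgeR adjusted p = 0.147), and its exons overlap CARF on the other strand. BOP1 had 27.6 and 20.9 CPM, against 25.7 and 23.5 CPM, so its groups overlapped (-0.04 ± 0.15, edgeR adjusted p = 0.868). The ratio of WDR12 to BOP1 counts was 2.78 and 3.89 in 2-D08 libraries against 2.66 and 3.02 in untreated libraries, which overlapped. That of PES1 to BOP1 counts was 5.67 and 6.74 against 4.8 and 5.14. The helicase gene DDX56 was at 76 and 56.9 CPM, against 57.8 and 51.3 CPM, with 2-D08 replicate 2 inside the untreated range. PPAN (0.23 ± 0.12) did not pass, and its exons overlap the readthrough gene PPAN-P2RY11 on the same strand, so its count is uncertain.

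LAS1L, an endonuclease of the internal spacer of the precursor, works with PELP1, TEX10, WDR18, NOL9 and the SUMO protease SENP3 in a complex also called the rixosome. LAS1L itself had 139 and 143 CPM in 2-D08 libraries, against 127 and 127 CPM in untreated libraries (0.15 ± 0.09 SE, edgeR adjusted p = 0.195). Within the complex TEX10 rose, with 106 and 109 CPM against 74.2 and 81.3 CPM (0.47 ± 0.09, edgeR adjusted p = 0.00171), although without untreated replicate 1 its call was lost (0.0938). SENP3 had 84.3 and 69.3 CPM, against 61.8 and 55 CPM (0.39 ± 0.11, edgeR adjusted p = 0.0176). SENP5, the other nucleolar SUMO protease, had 97.1 and 96.1 CPM, against 79.4 and 78.6 CPM (0.29 ± 0.09, edgeR adjusted p = 0.0242). WDR18 fell to 11.3 and 5.83 CPM in 2-D08 libraries, against 17.4 and 12.1 CPM (-0.85 ± 0.26, edgeR adjusted p = 0.0213). PELP1 (0.10) and NOL9 (-0.04) did not pass. SENP3, SENP5 and WDR18 each lost their call when single libraries were left out and on the TPM scale.

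Genes of the same pathway outside the 45 were also counted, from lists likewise chosen with earlier results of these data known. Over 136 tested genes from 7 further lists, 70 (51.5%) were called higher and 5 lower, with a median log2 fold change of 0.33. Among all tested genes 17.1% were called higher and 16.9% lower. Without untreated replicate 1 the counts were 30 higher and 0 lower, while 7.34% and 7.09% of all tested genes were called. Without untreated replicate 2 they were 32 and 2, while 9.81% and 10.1% were. Without 2-D08 replicate 1 there were 78 higher and 16 lower, while 21.8% and 23.4% of all tested genes were called. Of 16 tested other RNA polymerase I subunits and factors, 8 were higher and 0 lower (median 0.27). POLR1G, a subunit of the polymerase that contacts initiation factors, had 54.6 and 57.7 CPM in 2-D08 libraries, against 29.7 and 29.5 CPM in untreated libraries (0.92 ± 0.11 SE, edgeR adjusted p = 2.95e-05). POLR2K (0.75), a subunit shared by all 3 nuclear polymerases, and the termination factor gene TTF1 (0.42) rose as well, and TTF1 lost its call without either untreated library (adjusted p of up to 0.109 over all alternatives).

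Of 45 other small-subunit factors, 23 (51.1%) were higher and 1 lower (median 0.34), against 17.1% higher and 16.9% lower among all tested genes. PNO1, a late small-subunit factor, had 80.7 and 83 CPM in 2-D08 libraries, against 40.5 and 42.1 CPM in untreated libraries (0.99 ± 0.10 SE, edgeR adjusted p = 7.01e-06), and ESF1 (0.80) and UTP23 (0.71) rose too. NOB1, the endonuclease that makes the final cut of the small-subunit rRNA and a partner of PNO1, was the 1 gene called lower, with 46.9 and 40.8 CPM against 59.1 and 56.6 CPM (-0.41 ± 0.11, edgeR adjusted p = 0.0109). Its call was lost without either untreated library (adjusted p of up to 0.161 over all alternatives). Of 42 other large-subunit factors, 26 (61.9%) were higher and 2 lower (median 0.35). CCDC86 (0.81), NIFK (0.68) and GTPBP4 (0.64) rose. The late factors RSL24D1 (-0.32 ± 0.10) and EIF6 (-0.40 ± 0.13) fell, with edgeR adjusted p-values of 0.0271 and 0.029. EIF6 lost its call with library size scaling, without untreated replicate 1 and without 2-D08 replicate 2, and RSL24D1 without either untreated library (adjusted p of up to 0.187 and 0.308).

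The RNA exosome, which trims rRNA precursors from the end, had 7 genes higher and 0 lower of 14 (median 0.25). Among all tested genes 17.1% were called higher and 16.9% lower. The higher exosome genes included MPHOSPH6 (0.77), EXOSC9 (0.74) and EXOSC3 (0.73). Of 11 genes that assemble snoRNPs, 3 (27.3%) were called higher and 0 lower (median 0.27), a share higher that is not far from that of all tested genes. These 3 were SHQ1 (0.37), NAF1 (0.53) and RPAP3 (0.31), each of which lost its call without either untreated library (adjusted p of up to 0.236, 0.185 and 0.359 over all alternatives). SHQ1, NAF1 and RPAP3 also lost their calls with limma on TPM values and with the even-count term. DESeq2 did not call NAF1 or RPAP3, and RPAP3 also lost its call on the deposited transformed values and with the length trend removed. In the rixosome and SUMO protease list 3 were higher and 1 lower of 7, with a median of 0.15. Of the snoRNA host genes searched, 4 were analysed, with TAF1D higher (0.34) and RACK1 lower (-0.32), and both lost their calls without either untreated library (adjusted p of up to 0.377 and 0.37). Genes for cytosolic ribosomal proteins, picked by symbol after these results were known, were set beside them: of 77 tested, 0 were called higher and 4 lower, with a median of -0.05 and a summed level of 44110 and 40890 CPM in 2-D08 libraries against 44710 and 44860 CPM in untreated libraries.

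**Figure D5:**
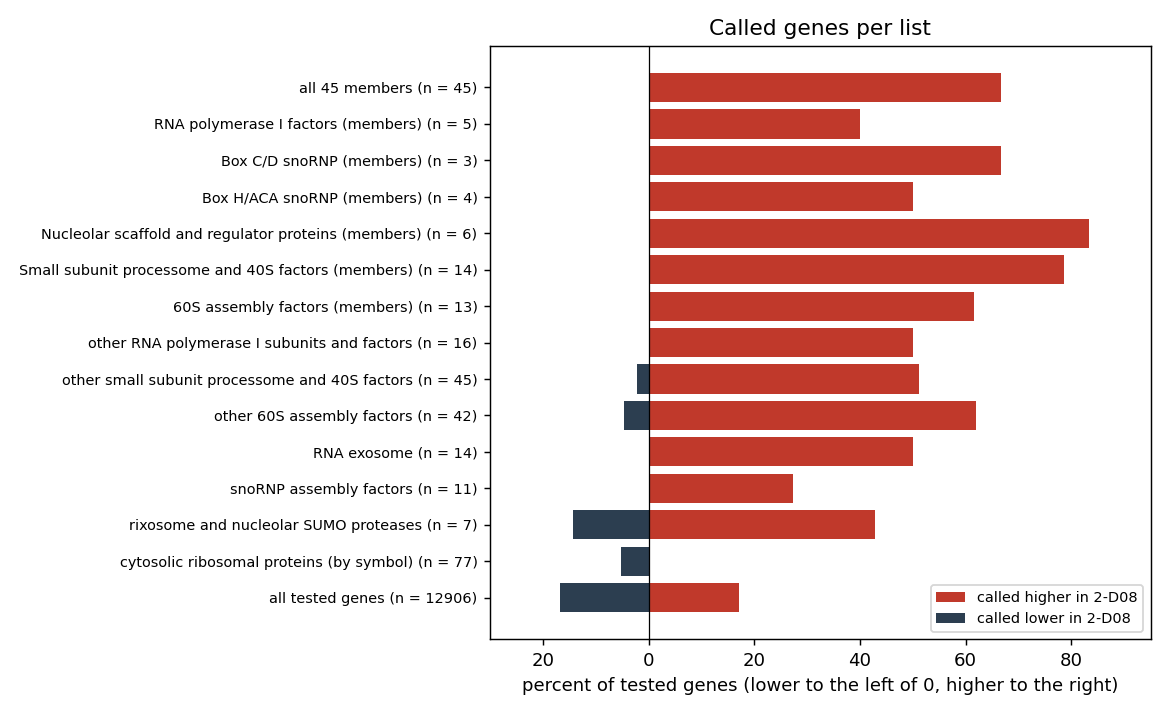
Percent of tested genes called higher (bars right of 0) or lower (bars left of 0) in 2-D08 cells, for the 45 genes, their 6 role groups, the further pathway lists other than snoRNA host genes, cytosolic ribosomal proteins and all tested genes. The 45 genes reach 66.7% higher and 0% lower, against 17.1% and 16.9% of all tested genes.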

How the data were processed

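Libraries were made from total RNA after ribosomal RNA depletion, per the labels' protocols, so ribosomal RNA itself is not measured. The submitters' processing notes name GRCh38, DESeq2, STAR 2.7.8a and cutadapt 3.4; which counting tool, strand setting and annotation applied is not given in the sources used here. Deposited by the authors were whole-number read counts per gene, TPM values, and a table that its name calls normalised counts but whose deposited values are on a log2-like scale with a shared lowest value. Counts were analysed with edgeR 4.0.16 in R 4.3.3: filterByExpr (minimum count 10) kept 12906 genes, TMM scaling was applied, and groups were compared with the robust quasi-likelihood test, two-sided, with Benjamini-Hochberg adjustment over all tested genes. CPM values include TMM factors, and standard errors derive from the F statistic. Alternatives used limma 3.58.1 and DESeq2 1.42.0, and for TPM limma on log2(TPM + 1) and log2(TPM + 0.1). Gene positions, overlaps and pseudogenes came from GENCODE 29, whose build matches but whose release may differ from the one used for counting, and promoters from RefSeq. The edgeR script was checked on simulated data. The genes and lists were chosen with earlier results of these data known. All 45 genes may be named; from each further list up to 3 called genes per direction with the smallest p and a mean of at least 1 CPM are named. PELP1 and NOL9 were added to complete their complex, after their values were seen.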

Additional observations from a re-analysis of the deposited data

How the results depend on the processing

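In each of 17 alternatives the genes called here kept their direction, and 11 of the 30 stayed past the threshold in all. The term for libraries with mostly even counts was added after seeing the data. On TPM values tested with limma at pseudocounts of 1 and 0.1, 1598 and 1608 of all genes changed (4376 as reported), 12 and 12 of the 45 genes were higher (30), the median log2 fold change of the 45 was 0.29 and 0.30 (0.37), and 23 and 25 genes of the further lists were higher (70) with 0 lower (5) in both; the cause was not tested. The median was 0.34 on the deposited transformed values. On TPM values the named further-list genes TTF1, UTP23, NOB1, RSL24D1, EIF6, SENP3, SENP5 and WDR18 lost their calls. So did SHQ1, NAF1, RPAP3, TAF1D and RACK1. With the even-count term 24 of the 45 genes and 51 further-list genes were higher, while 13.1% of all tested genes were called higher. Further-list genes called lower numbered 3 with library size scaling and 3 with the even-count term, while 15.7% and 13% of all tested genes were called lower. Refits without 1 library, where the spread of the remaining group stands in for that of the single library, found 1866 to 6077 genes changed, 16 to 32 of the 45 higher and 0 to 1 lower, a median of 0.34 to 0.42, and 30 to 78 further-list genes higher and 0 to 16 lower. Replicate numbers are not stated to pair libraries: deviations of same-numbered libraries correlated at 0.157 over 12906 genes. A fit with a replicate block called 6239 genes, with 24.3% of all tested genes higher and 24% lower. In that fit 35 of the 45 were higher and 1 (NHP2) lower, and 9 further-list genes were lower. Some genes that were not called turned sign. On the 2 TPM scales NPM1 was at -0.0427 and -0.0427, NAT10 at 0.15 and 0.16, and POLR1A at -0.0154 and -0.0159. The median over all tested genes was itself at -0.0406 and -0.0476 on these scales. Deposited TPM values summed to 741705 and 716934 in 2-D08 libraries and 761770 and 745964 in untreated libraries. With the transcript length trend removed POLR1B was at 0.00627. Without a library, the sign-changing genes ranged from -0.0659 to 0.16 for NPM1, -0.245 to 0.158 for BOP1, -0.063 to 0.0104 for NAT10, -0.074 to 0.119 for POLR1A and -0.0803 to 0.0297 for POLR1B. Counts of at least 244 per library stand behind each of the 45 genes.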
